A study of Mus musculus with 6 samples.

Results

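Tuba1b and Actb, the genes of an alpha-tubulin and of the cytoplasmic beta-actin, were followed across fetal and adult mouse liver. They are 2 of 15 genes that the array measures with a probe named by a RefSeq mRNA accession, out of 60915 probes in all that are not controls. Each gene has 1 probe, CUST_1_PI419532418 for Tuba1b (NM_011654.2) and CUST_9_PI419532418 for Actb (NM_007393.3), printed in 20 spots per array. Both genes were chosen by their processed signals in fetal and adult liver on these same 6 arrays. Their fetal and adult values are therefore given as a description, without a test.

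The study profiled RNA from untreated C57/BL6 livers at embryonic day 18 and at 2 months of age, with 3 arrays per stage. All animals were labelled male. The design text speaks of independent experiments, but the labels do not state whether a fetal sample held 1 liver or several, so the spread between arrays may be partly technical. After removal of ribosomal RNA, the RNA was amplified by random priming along the whole transcript and labelled with Cy3. It was measured on a one-colour Agilent array designed for long non-coding as well as coding transcripts.

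Alpha-tubulin pairs with beta-tubulin to form the dimers from which microtubules are built, the tracks for vesicle transport and the fibres of the mitotic spindle. Beta-actin polymerises into the microfilaments that support the cell cortex, motility and cell junctions, and in hepatocytes the microvilli of the bile canaliculus. The gene of beta-actin is widely used as a reference in measurements of mRNA. Fetal liver near birth still makes blood cells, whereas the adult organ is made up mainly of hepatocytes that seldom divide. Both proteins belong to families with very similar members, such as Tuba1a and Tuba1c for the tubulin and Actg1 for the actin. Whether these probes also bind transcripts of such relatives was not tested.

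Signals are given as processed signal, the spot brightness after background subtraction, in arbitrary units. A level is the log2 of that signal, averaged over the spots of a probe, minus the log2 of the array's 75th percentile of signal. A level of 0 is thus the 75th percentile. The brightness of a probe depends on its sequence as well as on the amount of its transcript. The ratio of the tubulin to the actin probe is therefore not a ratio of transcript numbers, and only its change between arrays can be compared.

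Fetal array 1 stood apart from the other arrays. Its mean correlation with the other arrays of its stage was 0.904 across 32250 probes, against 0.938 to 0.976 for the remaining 5 arrays. These correlations describe the arrays only, since probes are no replicates of one another. Of 300 negative-control spots, 25 were well above background on fetal array 1, against 1 to 7 on the other arrays. The 75th percentile of signal was highest on fetal array 2 (153.8) and adult array 1 (115.7) and lay between 70.3 and 84.2 on the others. None of the 15 genes with RefSeq names is on the list of hepatocyte markers, so the labelled tissue was not checked against them. Of the list of erythroid markers only Tfrc had a named probe, and of the leukocyte markers only B2m. With 1 gene of each list, neither cell type could be followed.

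The tubulin probe was among the brightest on the array and was far brighter in fetal liver. Its median signal over the spots used was 122584, 152372 and 92845 on fetal arrays 1, 2 and 3. In adult liver the median Tuba1b signal was 21478, 13788 and 11900 on arrays 1, 2 and 3. Of the spots used, the dimmest fetal spot of Tuba1b, at 89201 on fetal array 3, was still brighter than the brightest adult spot, at 22439 on adult array 1. No Tuba1b spot was saturated, and all 20 on each array were well above background.

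The actin probe gave a much dimmer signal with no separation of the stages. Its median signal was 526, 2166 and 701 on fetal arrays 1, 2 and 3. In adult liver the median Actb signal was 1442, 420 and 469. Fetal array 2 and adult array 1 were the bright ones, 1 from each stage. All 20 Actb spots were well above background on every array, with the median at 16.8 to 80.2 times the local background, against 441 to 5643 times for Tuba1b.

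**Figure D1:**
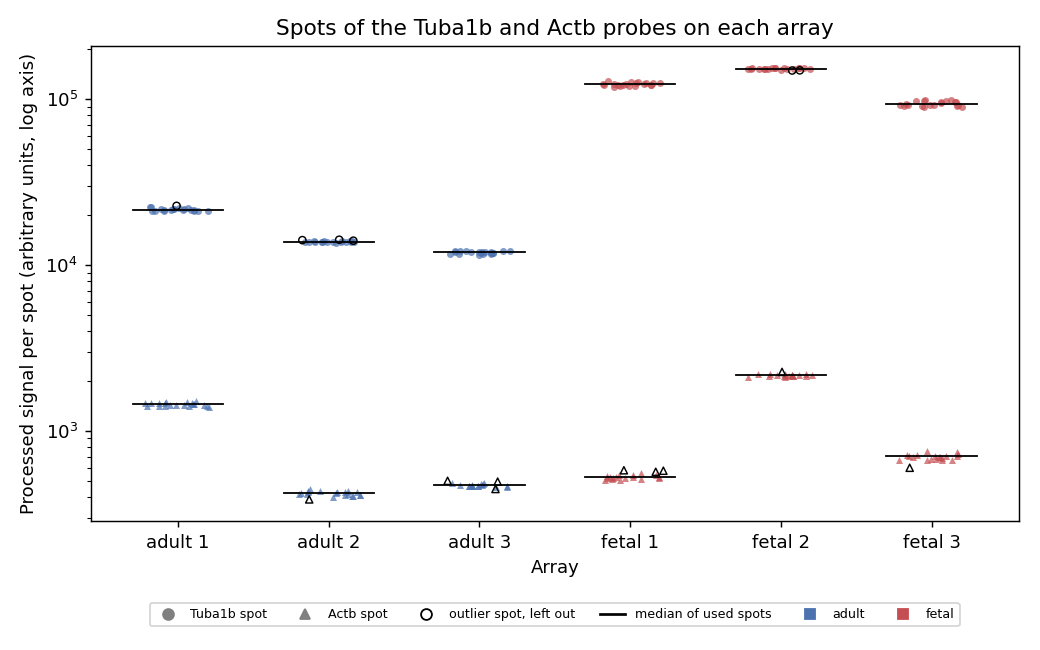
Processed signal of each spot of the Tuba1b (circles) and Actb (triangles) probes on the 6 arrays, on a log axis; lines mark the median of the spots used and open symbols the outlier spots left out. The Tuba1b spots used lie between 11434 and 22439 in adult and between 89201 and 154700 in fetal liver, while Actb is brightest on adult array 1 and fetal array 2.

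The spots of one probe lay very close together on each array. The SD of log2 signal over the spots was 0.010 to 0.049 for Tuba1b and 0.022 to 0.055 for Actb. The upper and the lower spots on the grid never differed by more than 0.05 on the log2 scale for either gene. Of 120 spots per gene over the 6 arrays, 6 of Tuba1b and 9 of Actb carried an outlier flag and were left out. The spread between arrays of a stage was far larger than that between spots. For Actb the SD between arrays was 14.0 times the pooled SD between spots in fetal and 16.7 times in adult liver. For Tuba1b these factors were 13.1 and 7.11. The 20 spots share 1 hybridisation, so they fix the value of an array closely and add nothing to the number of samples.

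Relative to the 75th percentile, Tuba1b stood at levels of 10.69, 9.95 and 10.12 on fetal arrays 1, 2 and 3. On adult arrays 1, 2 and 3 the Tuba1b level was 7.54, 7.62 and 7.22. The mean was 10.25 ± 0.39 in fetal and 7.46 ± 0.21 in adult liver (SD, n = 3 each). All 3 fetal arrays were above all 3 adult arrays. The difference, fetal minus adult, was 2.79 on the log2 scale (SE 0.29 from limma), or 6.94-fold. Over the 9 pairs of a fetal with an adult array, the Tuba1b fold ranged from 5.05 to 11.1. In bulk tissue, more cells with abundant tubulin mRNA and more of that mRNA per cell cannot be told apart.

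Groups that do not overlap were common on these arrays. They were found for 47.6% of the 32250 tested probes with a value on every array, and for 20.6% with the fetal arrays on top. The place of Tuba1b among these is a description only. A larger difference in favour of fetal liver than that of Tuba1b was found for 1486 tested probes, 4.60% of them. Among probes above background on all 6 arrays this share was 2.56%. The pooled SD of Tuba1b within stages was 0.31, against a median of 0.45 over tested probes, and 71.2% of these varied more. Among the other 13 genes with RefSeq names, the median pooled SD was 0.27 and only 5 varied more than Tuba1b.

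Actb reached levels of 2.82, 3.81 and 3.05 on fetal arrays 1, 2 and 3. On adult arrays 1, 2 and 3 the Actb level was 3.64, 2.58 and 2.57. The fetal arrays averaged an Actb level of 3.23 ± 0.52 and the adult arrays 2.93 ± 0.62 (SD, n = 3 each). The stages overlapped, since adult array 1 was above fetal arrays 1 and 3. The difference, fetal minus adult, was 0.30 (SE 0.42 from limma), smaller than the SD within either stage. In 7 of the 9 pairs the fetal array was higher, with folds from 0.566 to 2.37. A difference this small does not show that the actin level was equal in both stages.

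Relative to the 75th percentile, Actb varied more within each stage than the tubulin. In fetal liver this turned when the arrays were scaled to the mean of the other 13 genes, where the SD was 0.64 for Tuba1b and 0.31 for Actb. That mean includes the genes most like Actb in profile, so a smaller Actb SD is partly built in. At the 75th percentile scaling, the highest fetal level of Actb was 1.99-fold the lowest, and the highest adult level 2.11-fold the lowest, against 1.67-fold and 1.31-fold for Tuba1b. The pooled SD of Actb within stages was 0.57, and 37.0% of tested probes varied more. Adult arrays 2 and 3 had nearly the same Actb level, and adult array 1 lay above them.

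**Figure D2:**
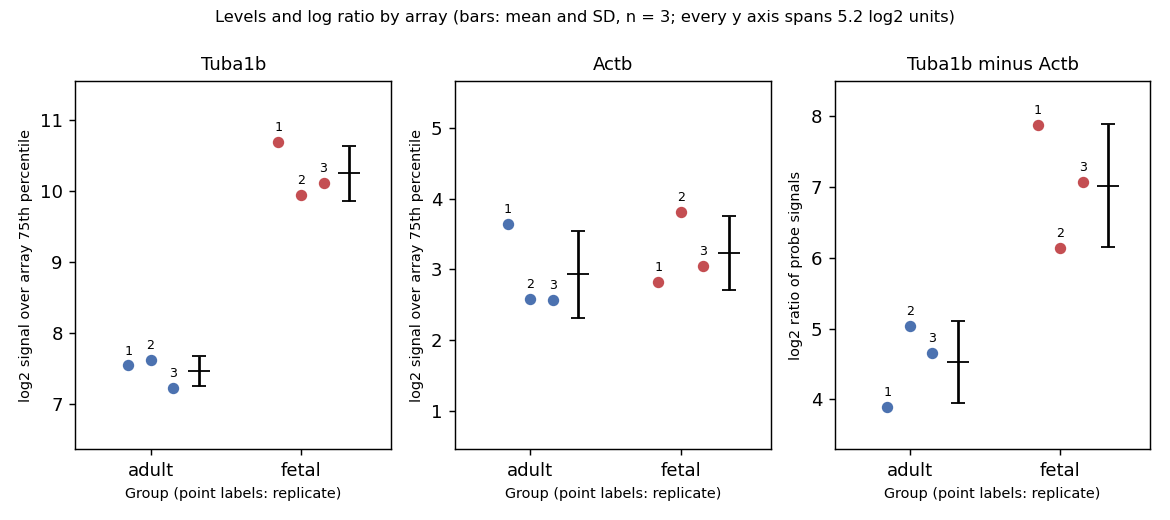
Level of Tuba1b, level of Actb and log2 ratio of their probe signals on each array, with point labels giving the replicate and bars the mean and SD of 3 arrays; every y axis spans the same length. Tuba1b lies at 9.95 to 10.69 in fetal and 7.22 to 7.62 in adult liver, Actb overlaps between 2.57 and 3.81, and the log2 ratio lies at 6.14 to 7.87 against 3.90 to 5.04.

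The ratio of the probes on the same array needs no scaling between arrays. The tubulin signal was 234, 70.5 and 134 times the actin signal on fetal arrays 1, 2 and 3. On adult arrays 1, 2 and 3 it was 14.9, 32.8 and 25.2 times the actin signal. The lowest fetal ratio was thus 2.15 times the highest adult ratio. On the log2 scale the ratio was 7.02 ± 0.87 in fetal and 4.53 ± 0.58 in adult liver (SD, n = 3 each), a difference of 2.49 or 5.63-fold. The ratio spread more within a stage than the Tuba1b level did, 3.31-fold over the fetal and 2.20-fold over the adult arrays. The smallest ratio of each stage was on the array with the brightest actin, fetal array 2 and adult array 1.

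Set against Actb as a reference gene, the tubulin difference was 2.49 on the log2 scale in place of 2.79. The pairs of arrays then differed more among themselves. The 9 pairs ranged from 2.15-fold to 15.7-fold, against 5.05-fold to 11.1-fold without a reference gene. Every pair had the higher ratio on the fetal array.

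The rank of a probe's brightness within its array also separated the stages for the tubulin. On fetal arrays 1, 2 and 3 the Tuba1b probe ranked 81, 101 and 135 among 60893 to 60902 probes with a value. On adult arrays 1, 2 and 3 it ranked 1026, 1044 and 1138 among 60876 to 60895. Expressed as a share, 0.131% to 0.220% of probes were brighter in fetal and 1.68% to 1.87% in adult liver. The probe held 0.144% to 0.177% of the summed probe signal of a fetal array and 0.0170% to 0.0217% of that of an adult array.

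A set of 68 probes was brighter than Tuba1b on all 3 fetal arrays, and 67 of them were also brighter on all 3 adult arrays. On all 3 adult arrays 937 probes were brighter. Among the genes with RefSeq names none was brighter on all fetal arrays. On all adult arrays B2m, which encodes the small subunit of MHC class I molecules, Gapdh of glycolysis and the cyclophilin gene Ppia were brighter than Tuba1b.

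The Actb probe ranked far lower and its ranks overlapped. They were 6506, 4504 and 5868 on fetal arrays 1, 2 and 3. On adult arrays 1, 2 and 3 they were 5032, 6926 and 6873. Between 7.39% and 11.4% of probes were brighter than Actb over the 6 arrays. The best actin ranks were again on fetal array 2 and adult array 1. The gap in rank between the probes ran from 4006 places on adult array 1 to 6425 on fetal array 1. It did not separate the stages, and the ranks of Actb moved by more places within a stage than those of Tuba1b. Probes lie much closer together in signal at the ranks of Actb, so numbers of places do not compare the steadiness of the probes. On all 6 arrays 3471 probes were brighter than Actb. Among the 15 genes with RefSeq names Actb was number 10 in level on every array, below Hprt and Nono among others. How well this probe reports the amount of actin mRNA was not tested.

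**Figure D3:**
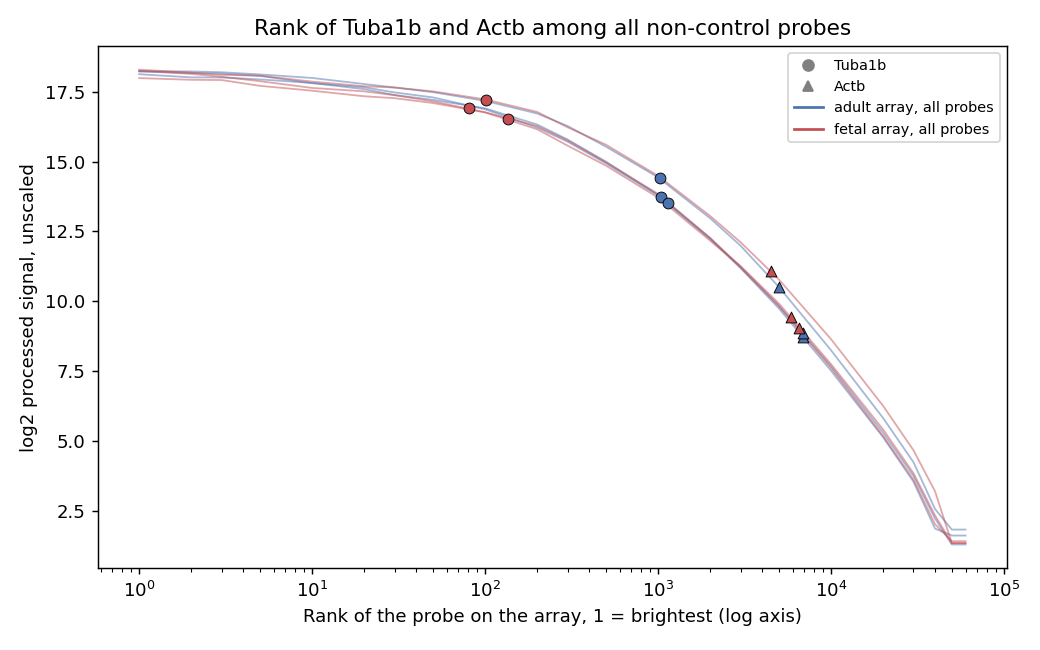
Unscaled log2 processed signal against rank for all probes on each array (lines), with Tuba1b (circles) and Actb (triangles) marked; the rank axis is logarithmic. Tuba1b ranks 81 to 135 in fetal and 1026 to 1138 in adult liver, while Actb ranks 4504 to 6926 with the stages mixed.

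The other genes with RefSeq names gave the setting for these values. Of 27 genes on a list of actins, tubulins and other cytoskeletal genes, the files name a probe only for Actb and Tuba1b, so no further tubulin or actin could be described. Of the other 13 genes with RefSeq names, 2 passed the limma test over all probes (adjusted p under 0.05 and at least 2-fold), 1 in each direction. Across all tested probes 26.0% passed, 11.3% higher in fetal liver and 14.8% lower. With so few genes, 2 of 13 does not set them apart from that background. The 11 genes that did not pass had differences from -0.89 to 0.57.

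The profile of Tuba1b over the 6 arrays was most like that of Tfrc, the transferrin receptor gene. Likeness was taken as the root-mean-square difference of the levels, each gene centred on its own mean. It was 0.47 on the log2 scale between Tuba1b and Tfrc. Next came Hprt, of purine salvage, at 1.15 and G6pd2, a glucose-6-phosphate dehydrogenase gene, at 1.18, both far less alike. Tfrc was the gene that passed the test in the fetal direction, with a log2 fold change of 3.62 (SE 0.25, limma adjusted p = 1.8e-04, n = 3 each). Its levels were 8.21, 8.20 and 7.95 on fetal arrays 1, 2 and 3 and 4.73, 4.49 and 4.26 on the adult arrays. Tfrc is on the list of erythroid markers, and it moved in the same direction as Tuba1b. The part of blood-forming cells in the tubulin difference was not tested.

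B2m passed in the adult direction, at -2.75 (SE 0.28, limma adjusted p = 7.8e-04, n = 3 each), and its profile was the least like that of Tuba1b at 2.80. Relative to the 11 genes that did not pass, the Tuba1b difference was 2.22 to 3.68 on the log2 scale, lowest against Hprt and highest against Ldhal6b. These references were limited to genes with small differences, so a positive sign follows from that choice. Against Tfrc the Tuba1b difference was -0.83.

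The profile of Actb was most like those of Tbp, the gene of the TATA-binding protein, at 0.29, the RNA-binding protein gene Nono at 0.30 and Ppia at 0.34. These genes and Gusb, which encodes a lysosomal glucuronidase, shared the pattern of the actin. All 4 were highest on adult array 1 among the adult arrays and on fetal array 2 among the fetal arrays. Of the other 13 genes, only these 4 met both conditions. Each condition alone was more common, with 8 genes highest on adult array 1 and 7 on fetal array 2. Across 32250 probes, the deviations of adult array 1 and fetal array 2 from their stage means correlated at 0.648. Tbp, Nono and Ppia were picked as nearest to Actb on these same arrays, so part of the likeness is built in. For Tbp the level was 0.24 on adult array 1 against -0.82 and -0.76 on adult arrays 2 and 3. On fetal array 2 it was 0.56 against -1.08 and 0.12 on fetal arrays 1 and 3.

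Relative to the 11 genes that did not pass, the Actb difference ran from -0.27 to 1.19 on the log2 scale. It was above 0 against 7 and below 0 against 4 of them. The highest value was against Ldhal6b, a dim probe with a mean level of -0.75. Against the 4 genes it was only -0.01 to -0.27. The direction of the actin difference thus turned with the reference gene, though the values below 0 were small. Of the other 13 genes, 3 had a smaller absolute difference than Actb (Ppia, Gapdh and Nono) and 3 a larger pooled SD within stages.

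**Figure D4:**
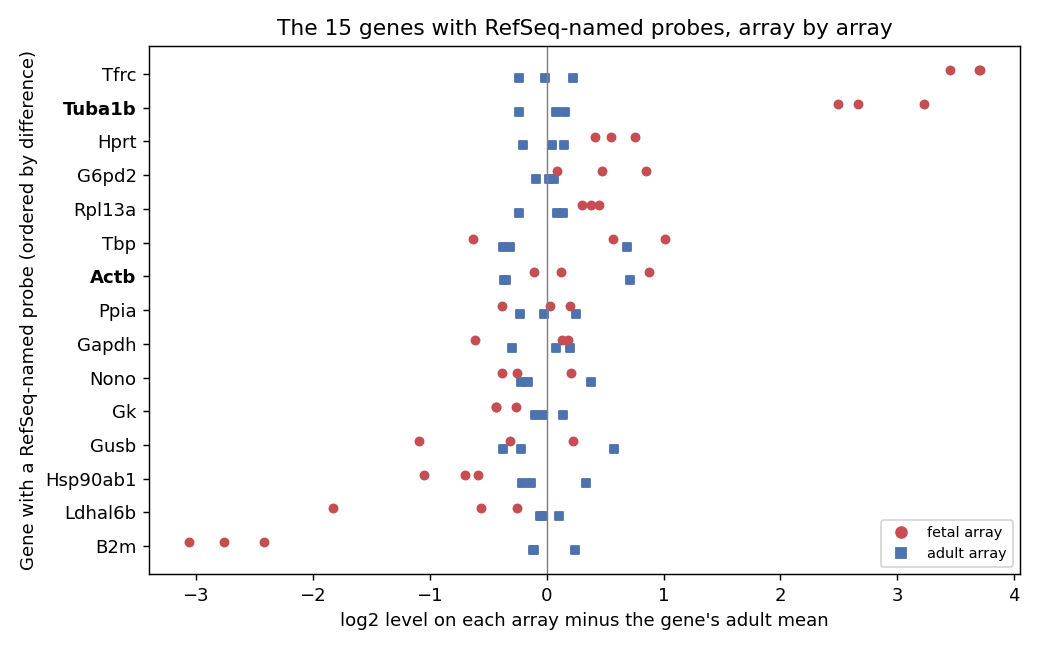
Level on each array minus the adult mean of the gene, for the 15 genes with RefSeq-named probes ordered by their difference; circles are fetal and squares adult arrays. Tuba1b lies beside Tfrc, with all fetal arrays more than 2 log2 units above the adult mean, while Actb lies in the middle with both stages mixed.

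The arrays with the brightest actin differed from the others in further measures. Adult array 1 and fetal array 2 had the highest 75th percentiles of signal. They also had the smallest gap between the control probes at the ends of the Gapdh transcript, whose 5′ minus 3′ log2 difference was -2.41 on adult array 1 and -2.33 on fetal array 2. On the other arrays that difference was -2.72 to -3.39. Without scaling, Actb spread further, over 4.12-fold among fetal and 3.44-fold among adult arrays. Scaled to the mean of the other 13 genes, the SD of Actb was 0.31 in fetal and 0.44 in adult liver in place of 0.52 and 0.62. Those 13 genes include the ones most like Actb in profile. The SD of Tuba1b under that scaling was 0.64 in fetal and 0.16 in adult liver, in place of 0.39 and 0.21. The part of signal strength or RNA quality in the spread of Actb was not tested.

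Scaling changed which array was highest but not the separation of the stages. Tuba1b was highest on fetal array 1 with the 75th percentile and on fetal array 2 without scaling, where its log2 signals were 16.91, 17.22 and 16.52 on fetal arrays 1, 2 and 3. Over 9 ways of processing the values, the Tuba1b difference was 2.79 to 3.03 and the fetal arrays were above the adult arrays in each. The Actb difference was 0.29 to 0.49 and the stages overlapped in each. The log2 ratio of the probes differed by 2.48 to 2.69.

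**Figure D5:**
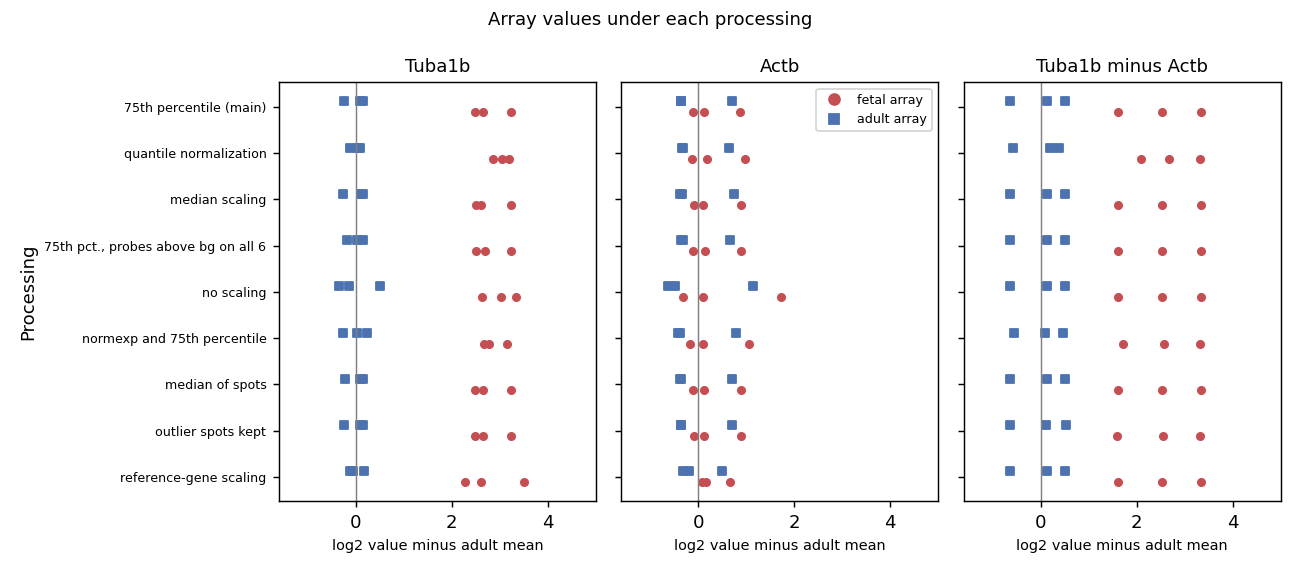
Values of Tuba1b, Actb and their log2 ratio on each array minus the adult mean, in rows for 9 ways of processing; circles are fetal and squares adult arrays. The Tuba1b difference stays between 2.79 and 3.03, and the Actb values of both stages overlap in every row.

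The arrays were scanned in 2 runs, told apart by the scan time in the file headers, and each run held both stages. In scan 1, with 2 arrays of each stage, the difference was 2.46 for Tuba1b, 0.32 for Actb and 2.14 for the log2 ratio. In scan 2, with fetal array 1 and adult array 3, it was 3.47, 0.26 and 3.21. The tubulin was higher on the fetal arrays in both scans, and more so in scan 2, which holds 1 array per stage. Without fetal array 1, the array that stood apart, the differences were 2.58 for Tuba1b, 0.50 for Actb and 2.07 for the ratio. Without fetal array 2 the Actb difference was 0.0081, and without adult array 1 it was 0.66. The small mean difference of the actin thus moved by more than 1.5 times with single arrays. It was 0.13 without adult array 2 and 0.12 without adult array 3.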

How the data were processed

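Per the file headers, the deposited scanner files hold spot intensity from Agilent Feature Extraction 11.0.1.1, background-subtracted and not scaled between arrays, with the build mm9 on the grid. The 0 or 1 flags per spot used here are also deposited there. The authors' deposited log2 table holds 17307 probes and neither gene, so it served only for a count of calls. How the authors scaled it is not stated in the labels. Control spots, 15 negative-control probes and outlier spots were left out, and spots were averaged on the log2 scale after subtracting the 75th percentile. Accessions were matched without versions to a RefSeq table (GRCm38), whose coordinates were not used because the build differs. The stages were tested in R 4.3.3 using limma 3.58.1 (two-sided moderated test, Benjamini-Hochberg) over 32336 probes well above background on at least 3 arrays, with calls at an adjusted p under 0.05 and 2-fold. The test was also run on simulated data with independent probes. These lacked effects shared by the probes of an array, so they cannot vouch for the test here. Normexp (offset 50) used median spot signals. Both genes, the gene lists and the tests were chosen with earlier results of these data known. Named genes are these 2 genes, other RefSeq-named genes that were called, and the 3 nearest in profile to each. Genes with other places in the text were named for their values: Ldhal6b, Gapdh and Gusb. The number of arrays limits the precision. The alternatives were other scalings, normexp, spot summaries, array weights, the scan (arrays of identical scan time in the headers) and the replicate number as blocks, left-out arrays and other filters. Scaling to the mean of the other 13 RefSeq-named genes was added after seeing the data.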

Additional observations from a re-analysis of the deposited data

How the results depend on the processing

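The Tuba1b difference kept its direction in all 19 alternatives and moved beyond its pooled SD only within single scans, to 2.46 in scan 1 and 3.47 in scan 2. Every fetal array was above every adult array, so left-out arrays, single scans and array weights could not turn that direction. The blocks by scan and by replicate number hold the stages in equal shares, so they could not move the difference. Leaving out 1 array at a time gave 2.58 to 2.94 for Tuba1b, 0.0081 to 0.66 for Actb and 2.07 to 2.94 for the log2 ratio. The median rank of Tuba1b then lay between 91 and 118 in fetal and 1035 and 1091 in adult liver. The median rank of Actb lay between 5186 and 6187 in fetal and 5952.5 and 6899.5 in adult liver. The Actb difference kept its sign in the 19 alternatives run, but without fetal array 2 its value of 0.0081 had an SE of 0.43 from limma. Relative to 4 of the 11 genes that did not pass the test, the sign turned, with values of -0.01 to -0.27.

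The number of probes called by limma, 8418 (3639 higher in fetal liver), depended on the processing. It was 5195 without scaling, 4566 with normexp, 5213 on probes above background on all 6 arrays and 4250 in the authors' deposited table. Leaving out 1 array at a time gave 5312 (without adult array 2) to 10021 (without fetal array 1), with 5396 without adult array 3. It was 10122 with the scan as a block and 11130 with array weights. Without scaling, 60.5% of the calls were higher in fetal liver, against 43.2%, and the median difference of tested probes went from -0.06 to 0.13. Of the calls in the authors' values, 49.3% were higher. With the replicate number as a block 4506 were called. Each number holds 1 array of each stage, so the differences of Tuba1b and Actb, 2.79 and 0.30, could not change under this block. The deviations of same-numbered arrays from their stage means correlated at -0.525, -0.349 and -0.313 across probes. For arrays with different numbers the correlations ran from -0.486 to 0.648. The deviations within a stage are tied to one another, so these values cannot decide whether the numbers pair the samples. With 3 arrays per stage, the Actb difference of 0.30 lay below its pooled SD of 0.57.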
